A study of Mus musculus with 6 samples.

Results

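The proteasome genes of the mouse cardiac ventricle were followed across the loss of Klf15 and across postnatal age. They were taken by name, as every gene symbol that starts with Psma, Psmb, Psmc, Psmd, Psme, Psmf or Psmg followed by a digit and whose level averaged at least 10 normalized counts over the 18 libraries. The name fitted 50 symbols, and 48 of them reached that mean, out of 13032 genes of the 24391 in the table that did. Just outside it were Psma8, a testis-specific alpha subunit with a mean of 8.64 and a highest value of 19.7, and Psmb11, the catalytic subunit of the thymus, with a mean of 0.163. Just inside were Psmb9 at 37.9 and Psmc3ip at 46.2. Psmc3ip fits the name only: it encodes a partner of PSMC3 that acts in meiotic recombination and is not a proteasome subunit, which leaves 47 genes of the proteasome itself.

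RNA was sequenced from ventricles of C57BL/6 mice at postnatal day 10 (P10), 4 weeks (4w) and 20 weeks (20w). At each age the study compared Klf15 loss of function (KO) with Klf15 wild type (WT), with 3 libraries in each of the 6 groups. KLF15 is a zinc finger transcription factor known for its part in the amino acid and lipid metabolism of heart and muscle, and the series title links it to Wnt signalling. The sources used here do not give the construction of the allele, the cells that lacked the gene, the sex of the mice or any batch. Nor do the labels state whether each library is a mouse of its own, and p-values therefore reflect only how far the libraries of a group differ, part of which may be technical.

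The proteasome degrades proteins that carry ubiquitin chains. Its core particle is a stack of alpha and beta rings, and 3 of the beta subunits (Psmb5, Psmb6 and Psmb7) cut the substrate. Interferon exchanges them for Psmb8, Psmb9 and Psmb10, which makes the immunoproteasome. The regulatory particle, built of the Psmc ATPases and the Psmd subunits, binds, unfolds and feeds in ubiquitinated proteins, while Psme activators can take its place and Psmg chaperones help to build the core. In heart muscle the proteasome replaces worn sarcomere and membrane proteins, and its activity is known to matter in hypertrophy and heart failure.

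The libraries held 9504538 to 29278351 reads in genes, and the proteasome genes took 0.259% to 0.395% of the normalized total. Klf15 itself averaged 22.5 ± 4.4 normalized counts in P10 KO and 149.7 ± 12.9 in P10 WT libraries (SD, n = 3 each). It averaged 42.2 ± 13.2 in 4w KO and 1078.3 ± 211.6 in 4w WT, and 40.0 ± 6.3 in 20w KO and 1021.5 ± 74.3 in 20w WT, with no overlap at any age. The second 4w KO library stood apart, with 30.8% of its reads on the ribosomal RNA gene Rn45s, against at most 2.72% in any other library. The X-inactivation transcript Xist was high in all 6 P10 libraries (4814 to 11077 normalized counts), which also held the Y-linked Ddx3y (524.7 to 1198), whereas Xist reached at most 9.4 at 4w and 20w. At P10 Xist was 6612, 4814 and 5545 in KO libraries, against 11077, 5229 and 9514 in WT libraries. Its part in KO against WT at P10, and in the tests set against that effect, was not tested. Cardiomyocyte markers were abundant throughout (8 genes with a summed level of 703000 to 1220000), and none of them was at 0. Of the erythroid markers, 2 of 5, Hbb-b1 among them, were at 0 in every library.

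Levels between genes are compared here only per length, as the mean over the 18 libraries in normalized counts per kb of the longest protein-coding transcript. Psme4, the gene of the large activator PA200, was highest at 1630 normalized counts per kb, followed by the catalytic Psmb6 at 1500. The alpha subunit genes Psma6 and Psma1 stood at 1330 and 1240 normalized counts per kb. Psmb8 and Psmb9, both of the immunoproteasome, stood at 65.2 and 28.1 normalized counts per kb. Psma3 was lowest at 22.6, and 22.0% of the 50-base windows of its transcript also occur in other genes. For Psma5, Psmb3, Psmb5, Psme2 and Psme2b that share was 50% or more. These 5 genes had a median of 142 normalized counts per kb, against 612 for the other 43, and since reads from near-identical copies can be lost or split in counting, their levels are uncertain. Psme2 and Psme2b share sequence with each other. Psmb9 shares 12.5% of its windows with its neighbour Tap1, Psmb7 28.1% with Nek6, Psmd13 15.8% with Sirt3 and other genes, and Psmc3ip 27.1% with Mlx. Whether the counting used strand is not given, so reads from such overlapping genes cannot be told apart.

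Promoter sequences are printed for Psmd11 and Psme1, whose levels differed with the loss of Klf15, and for Psme4, whose level differed most between the ages. They are the 250 bases before the RefSeq start of each gene on GRCm38.p6, 5′ to 3′ on the plus strand: chr11:80428365-80428614 for Psmd11, chr14:55578244-55578493 for Psme1 and chr11:30771525-30771774 for Psme4. Capitals mark matches to CCNCNCCC, the CACCC-type box that Krüppel-like factors are known to bind, read on both strands.
Psmd11: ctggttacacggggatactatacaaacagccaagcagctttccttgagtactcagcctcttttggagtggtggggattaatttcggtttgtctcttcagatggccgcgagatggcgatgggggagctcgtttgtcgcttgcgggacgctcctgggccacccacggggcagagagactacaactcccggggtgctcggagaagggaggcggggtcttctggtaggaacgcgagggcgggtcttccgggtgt
Psme1: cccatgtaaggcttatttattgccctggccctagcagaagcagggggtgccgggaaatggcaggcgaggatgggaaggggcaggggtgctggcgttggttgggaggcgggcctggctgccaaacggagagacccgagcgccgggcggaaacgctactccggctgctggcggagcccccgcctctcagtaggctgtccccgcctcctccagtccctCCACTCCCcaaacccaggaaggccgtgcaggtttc
Psme4: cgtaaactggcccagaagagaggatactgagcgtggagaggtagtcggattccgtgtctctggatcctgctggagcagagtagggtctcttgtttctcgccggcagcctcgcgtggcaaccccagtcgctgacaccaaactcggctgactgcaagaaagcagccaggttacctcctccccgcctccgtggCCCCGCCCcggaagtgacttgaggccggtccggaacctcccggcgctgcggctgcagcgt
The window of Psme1 held 1 match, which begins 35 bases before the start, and that of Psme4 held 1, which begins 60 bases before it. That of Psmd11 held none. In windows of 250 bases before to 50 bases after the start, available for 41 of the 48 genes (44 windows), 52.3% held CCNCNCCC, against 49.5% of the windows of all genes (32851). The GC box GGGCGG, which can overlap a CCNCNCCC match, stood in 54.5% of the proteasome windows and 35.7% of all. The core of the antioxidant response element, TGANNNNGC, through which NRF1 is known to drive proteasome genes, stood in 56.8% of them and 41.3% of all. CCAAT stood in 31.8% and 37.4%. A match to these letters is a description and not a binding site. No proteasome gene lies within 10 Mb of Klf15 in that annotation.

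The first question of the design is what the loss of Klf15 does at each age. Few proteasome genes differed: 0 of 48 were called at P10, 1 at 4w (Psmd11, higher) and 1 at 20w (Psme1, higher). Here and below a log2 fold change is on the scale of log2(normalized count + 1), ± is the model's standard error (SE) unless SD is named, and a gene is called at an adjusted p under 0.05 in limma, with Benjamini-Hochberg adjustment over all 13032 genes. Over all genes, 2.26% were called at P10 in either direction, 2.99% were called higher at 4w and 3.21% higher at 20w, so these counts lie at or near the background. At P10, 2 proteasome genes had an unadjusted p under 0.05, and edgeR and DESeq2, run on reads recovered from the normalized counts, each called 1, Psmd3.

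The log2 fold changes of the 48 genes had a median of -0.00 at P10, 0.02 at 4w and 0.11 at 20w, beside -0.01, 0.00 and 0.01 over all genes tested. At 20w, 43 of 48 were above 0 (89.6%, against 51.5% of all genes), at 4w 29 and at P10 23. Expressed from the WT mean of the same age, the median over the 48 genes was 0.12, 0.10 and 0.13 on the log2 scale in the 20w KO libraries and 0.02, 0.02 and -0.05 in the 20w WT libraries. All 20w KO libraries were thus above all 20w WT libraries by this measure, but the members share these few libraries and are not replicates. In 13 of 48 genes every 20w KO library was above every 20w WT library, and in 1 (Psmc3ip) below; over all genes 11.7% were above and 12.0% below. In 20w KO libraries the macrophage markers summed to 3400 to 3760 normalized counts (7 genes, none at 0), against 2920 to 3280 in 20w WT libraries. Of these 7 genes 0 were called between KO and WT at 20w. The log2 fold change was above 0 in 6 of them and -0.06 for Cd163. The cardiomyocyte markers summed to 1120000 to 1220000 in 20w KO and 1120000 to 1160000 in 20w WT libraries. Their part in the result was not tested, and in whole tissue more cells of a type and more RNA per cell cannot be told apart.

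**Figure D1:**
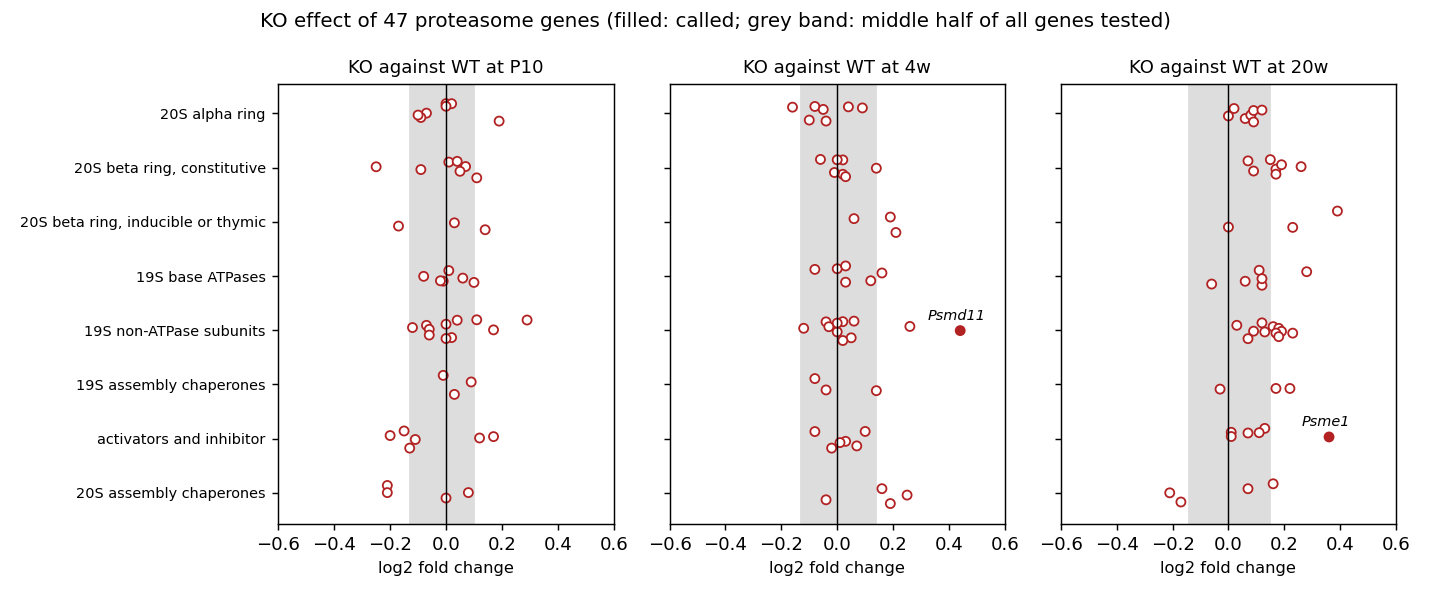
Log2 fold change of KO against WT for the 47 genes of the proteasome (x axis) by the part of the complex they belong to (rows), at P10, 4w and 20w; each circle is 1 gene, filled circles are called, and the grey band spans the interquartile range of all genes tested. At 20w the circles lie mostly to the right of 0, with a median of 0.11 over the 48 genes including Psmc3ip, which is not drawn, and only Psmd11 at 4w and Psme1 at 20w are filled.

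By part of the complex, the alpha ring (7 tested) had a median log2 fold change of -0.00 at P10, -0.05 at 4w and 0.08 at 20w, with 2, 2 and 7 genes above 0. The constitutive beta ring (7 genes) had 0.04, 0.02 and 0.17, and at 20w all 7 were above 0, between 0.07 and 0.26. The inducible beta genes Psmb8, Psmb9 and Psmb10 had 0.03, 0.19 and 0.23. For the ATPases (6 genes) the medians were 0.00, 0.03 and 0.11. The 11 non-ATPase subunits had 0.00, 0.02 and 0.16, and at 20w they lay between 0.03 and 0.23. The activators and the inhibitor (6 genes) had -0.12, 0.02 and 0.09. The chaperones of the core (4 genes) had -0.10, 0.18 and -0.05, and those of the regulatory particle (3 genes) 0.03, -0.04 and 0.17. The constitutive beta ring and the non-ATPase subunits thus had the highest medians at 20w among parts with more than 3 genes, although none of their members was called there.

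Psmd11 encodes a scaffold subunit of the regulatory particle that is known to raise proteasome assembly and activity in stem cells. At P10 it had 359, 411 and 438 normalized counts in KO libraries, against 378, 392 and 402 in WT libraries. At 4w it had 577, 617 and 593 in KO libraries, against 437, 415 and 469.7 in WT libraries. At 20w it had 632, 665 and 762 in KO libraries, against 608, 602 and 623 in WT libraries. The groups overlapped at P10 and did not at 4w or at 20w, where the lowest KO library was just above the highest WT library. The log2 fold change at 4w was 0.44 ± 0.09 (adjusted p = 0.0041 in limma), a 1.35-fold higher level in KO, and it was 0.04 ± 0.09 at P10 (adjusted p = 0.91 in limma) and 0.16 ± 0.09 at 20w (adjusted p = 0.28 in limma). The call at 4w held without each library of the comparison in turn (adjusted p 0.0064 to 0.03), but not without the 4 libraries highest in Rn45s (0.37, adjusted p = 0.14 in limma) or with libraries scaled to a common total (0.19, adjusted p = 0.38). The library with most Rn45s reads is the 4w KO library at 617, and at 4w that scaling moved the median of all genes by -0.24. The 4 libraries left out were the second ones of 4w KO, 4w WT, 20w KO and 20w WT, so these groups had fewer libraries in that fit. Whether a call lost there reflects Rn45s or fewer libraries was not tested. Of the Psmd11 transcript, 18.9% of the 50-base windows also occur in other genes.

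Psme1 encodes the alpha subunit of PA28, an interferon-inducible activator that opens the core particle and is known for its part in making peptides for MHC class I. At P10 it had 822, 828 and 719.7 normalized counts in KO libraries, against 711, 693 and 782 in WT libraries. It had 1284, 1353 and 1422 in 4w KO libraries, against 1355, 1162 and 1264 in 4w WT libraries. At 20w the KO libraries held 1306, 1389 and 1348, against 1019.7, 1033 and 1099 in the WT libraries. Only at 20w did the groups not overlap, and there the KO libraries were near the level of 4w while the WT libraries were below it. The log2 fold change was 0.36 ± 0.08 at 20w (adjusted p = 0.0059 in limma; 1.28-fold), 0.12 ± 0.08 at P10 (adjusted p = 0.55) and 0.10 ± 0.08 at 4w (adjusted p = 0.54). The call held without each library in turn (adjusted p 0.0087 to 0.029) and was lost without the 4 libraries highest in Rn45s (0.32, adjusted p = 0.089 in limma) and with a common total (0.35, adjusted p = 0.25). Psme2, which encodes the beta subunit of PA28, and the near-identical Psme2b had log2 fold changes of 0.13 ± 0.19 and 0.11 ± 0.10 at 20w and were not called.

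**Figure D2:**
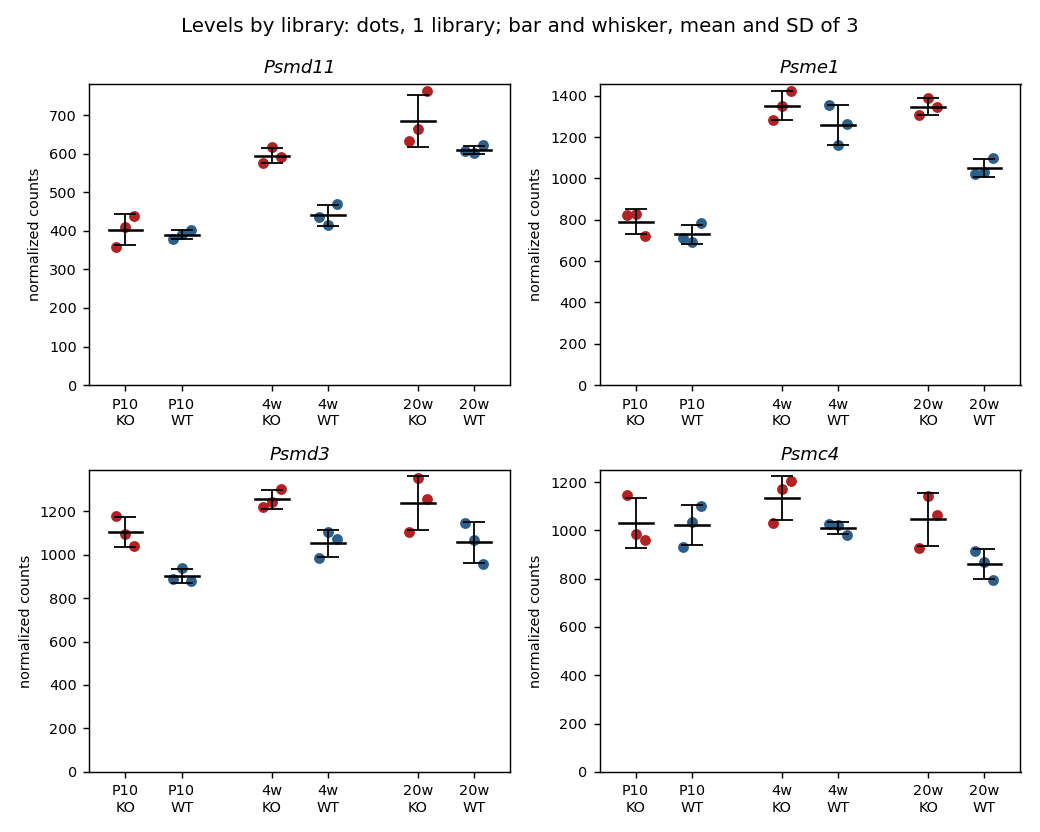
Normalized counts (y axis) of Psmd11, Psme1, Psmd3 and Psmc4 in every library by group (x axis; KO red, WT blue); bars are means and whiskers SD of 3 libraries. Psmd11 is higher in all 4w KO libraries (577 to 617) than in the 4w WT libraries (415 to 469.7), and Psme1 in all 20w KO libraries (1306 to 1389) than in the 20w WT libraries (1019.7 to 1099).

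The remaining members named for the comparison of KO with WT are those of smallest adjusted p, and none was called at any single age. Psmd3, a subunit of the lid of the regulatory particle, had 1181, 1095 and 1042 normalized counts in P10 KO libraries, against 889.6, 938 and 879 in P10 WT libraries. It had 1219, 1246 and 1305 in 4w KO libraries, against 983, 1104 and 1073 in 4w WT libraries. It had 1105, 1353 and 1259 in 20w KO libraries, against 1145, 1069 and 958 in 20w WT libraries. The KO libraries were above all WT libraries at P10 and at 4w and overlapped them at 20w. Its log2 fold changes were 0.29 ± 0.08, 0.26 ± 0.08 and 0.23 ± 0.08 at P10, 4w and 20w, with adjusted p of 0.074, 0.083 and 0.11 in limma; at P10 the adjusted p was 0.047 in edgeR and 0.022 in DESeq2.

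Psmc4 encodes an ATPase of the regulatory particle. Its P10 KO libraries held 1149, 984 and 959.9 normalized counts, against 933, 1036 and 1099 in P10 WT. Its 4w KO libraries held 1029, 1171 and 1203, against 1025, 1021 and 982 in 4w WT. Its 20w KO libraries held 928, 1142 and 1066, against 916, 868 and 794 in 20w WT. The groups overlapped at P10 and were apart at 4w and 20w by a narrow margin, and at 20w the log2 fold change was 0.28 ± 0.09 (adjusted p = 0.074 in limma). Without the first 20w KO library, the lowest of that group for Psmc4 and Psmd3, both genes were called at 20w and the count rose to 3 (Psmc4 adjusted p = 0.023 and Psmd3 adjusted p = 0.028 in limma).

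Psmc3ip, the gene that is no proteasome subunit, had 29.0, 35.5 and 42.6 normalized counts in P10 KO libraries, against 64.7, 49.8 and 62.5 in P10 WT libraries. It had 42.1, 30.4 and 32.5 in 4w KO libraries, against 20.0, 87.0 and 97.4 in 4w WT libraries. It had 30.6, 34.5 and 17.1 in 20w KO libraries, against 47.0, 60.9 and 48.6 in 20w WT libraries. All KO libraries were below all WT libraries at P10 and 20w, and the first 4w WT library lay far below the other 2 of its group. The log2 fold change was -0.72 ± 0.40 at P10, -0.67 ± 0.40 at 4w and -0.95 ± 0.40 at 20w (adjusted p 0.44, 0.42 and 0.16 in limma), and without that first 4w WT library it was -1.38 at 4w (adjusted p = 0.0031), which raised the count at 4w to 2.

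Psmd13, another lid subunit, had 719, 705 and 772 normalized counts in 20w KO libraries, against 677, 646 and 610.1 in 20w WT libraries. Psmd1, the largest scaffold of the base, had 3033, 2879 and 3034 in 20w KO libraries, against 2696, 2668 and 2807 in 20w WT libraries. Both were higher in every KO than in every WT library at 20w, with log2 fold changes of 0.18 ± 0.08 (adjusted p = 0.20 in limma) and 0.13 ± 0.06 (adjusted p = 0.22). At 4w both overlapped: Psmd13 had 790.5, 903 and 818 in KO libraries, against 764, 902 and 844 in WT libraries. Psmd1 had 2599, 2741 and 2733 in 4w KO libraries, against 2468, 2641 and 2704 in 4w WT libraries. At P10 Psmd13 had 736, 787 and 678 in KO libraries, against 716, 787 and 793 in WT libraries. Psmd1 at P10 lay just above WT in every KO library. It had 2289.7, 2165 and 2043 in P10 KO libraries, against 1972, 2014 and 2029.9 in P10 WT libraries.

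Psme3 encodes PA28 gamma, a nuclear activator not induced by interferon. It had 534, 633 and 642 normalized counts in P10 KO libraries, against 702, 722 and 656 in P10 WT libraries. In the 4w libraries it had 796, 781 and 721 in KO libraries, against 683, 776 and 732 in WT libraries, and at 20w 709.8, 716 and 762 in KO libraries, against 720.5, 745 and 704 in WT libraries. The KO libraries lay below the WT libraries at P10 and overlapped them later, with a log2 fold change of -0.20 ± 0.08 at P10 (adjusted p = 0.22 in limma).

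A further contrast, the mean of the 3 effects of Klf15 loss, was added after the values at each age had been seen, and it called 4 of the 48 genes. Psmd3 was higher in KO by a log2 fold change of 0.26 ± 0.05 (adjusted p = 0.0012 in limma), and it kept the call without each of the 18 libraries in turn (adjusted p 0.00028 to 0.0036). Psmd11 (0.21 ± 0.05, adjusted p = 0.0079 in limma) and Psme1 (0.19 ± 0.04, adjusted p = 0.0073) were higher too, although each rests mostly on the age at which it was called. Psmc3ip was lower (-0.78 ± 0.23, adjusted p = 0.033 in limma), and that call held without 7 of the 18 libraries in turn and was lost without each of the other 11 (adjusted p up to 0.076, without the second 4w WT library). In this contrast 4.27% of all genes were called higher and 6.1% lower, so 3 higher among 48 is not far from the background. With a common library total the calls of Psmd3 (0.17, adjusted p = 0.25 in limma), Psmd11 (0.13, adjusted p = 0.44) and Psme1 (0.11, adjusted p = 0.52) were lost. Leaving out the 4 libraries with most Rn45s ended those of Psmd11 (adjusted p = 0.090), Psme1 (0.10) and Psmc3ip (0.19). The 3 tests of whether the effect of Klf15 loss differed between ages called 0 of 48 genes in limma, in edgeR and in DESeq2. With an unadjusted p under 0.05 there were 2 (4w against P10), 3 (20w against P10) and 2 (20w against 4w), and over all genes limma called 1.26%, 3.74% and 0.192%. The effect on Psmd11 at 4w minus that at P10 was 0.40 ± 0.12 (adjusted p = 0.12 in limma), and that on Psme1 at 20w minus that at 4w 0.25 ± 0.11 (adjusted p = 0.35), so neither was shown to differ between the ages.

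The second question of the design is how the ventricle changes with age, in each genotype. Under the authors' scaling 30 of 48 proteasome genes were called higher at 4w than at P10 in KO, 29 of 48 in WT and 0 lower in either. With a common library total 9 of 48 were called lower in KO. Over all 13032 genes that scaling called 8170 in KO, of which only 12.0% were higher. The common total includes the Rn45s reads, which were 30.8% of the second 4w KO library. Under the authors' scaling 29.6% of all genes tested were called higher and 28.4% lower in KO, and 28.7% higher and 29.2% lower in WT. The median log2 fold change of the 48 genes was 0.35 in KO and 0.32 in WT, beside 0.00 in KO and -0.01 in WT over all genes. Of the called genes 28 were shared, 93.3% of the KO list and 96.6% of the WT list. Psmd11 and Psme3 were called in KO alone and Psmd3 in WT alone; these differences between genotypes are the age differences of the effect of Klf15 loss, which were not called. In 31 genes all 4w KO libraries were above all P10 KO libraries, and in 30 genes all 4w WT libraries were above all P10 WT libraries, beside 32.6% and 31.8% of all genes.

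These directions depend on the scaling. With libraries brought to a common total, the median of all genes moved to -0.48 in KO and -0.26 in WT, and 10 proteasome genes were called in KO (1 higher, 9 lower) and 2 in WT (both higher). Over all 13032 genes 8170 were then called in KO, 12.0% of them higher, and 6358 in WT, 24.7% of them higher. Relative to the median of all genes the proteasome median was 0.34 higher in KO and 0.33 higher in WT under both scalings. With Rn45s left out of the total, the proteasome genes took 0.365% to 0.387% in 4w KO and 0.293% to 0.333% in P10 KO libraries. In WT they took 0.365% to 0.399% at 4w and 0.300% to 0.327% at P10. Several other measures moved between P10 and 4w. Cardiomyocyte markers summed to 1130000 to 1180000 normalized counts in 4w KO and 779000 to 856000 in P10 KO libraries, and to 987000 to 1160000 in 4w WT and 703000 to 792000 in P10 WT libraries. Macrophage markers summed to 3820 to 4110 in 4w KO and 1610 to 1800 in P10 KO libraries, and to 4030 to 4770 in 4w WT and 1770 to 2140 in P10 WT libraries. Fibroblast markers (6 genes) summed to less, with 12300 to 13300 in 4w KO and 23400 to 26000 in P10 KO libraries, and 14800 to 16300 in 4w WT and 26300 to 29800 in P10 WT libraries. In each genotype 5 of the 6 were called lower. In WT Col1a1 averaged 1624.6 at 4w and 11562.2 at P10, while Dcn averaged 9368.8 and 8346.1 without a call. Endothelial markers (6 genes) summed to 9350 to 11300 in 4w KO and 17000 to 18400 in P10 KO libraries, and to 8450 to 11100 in 4w WT and 17000 to 17200 in P10 WT libraries. The part of these shifts in the result was not tested, and the Xist signal of the P10 libraries cannot be told apart from age.

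**Figure D3:**
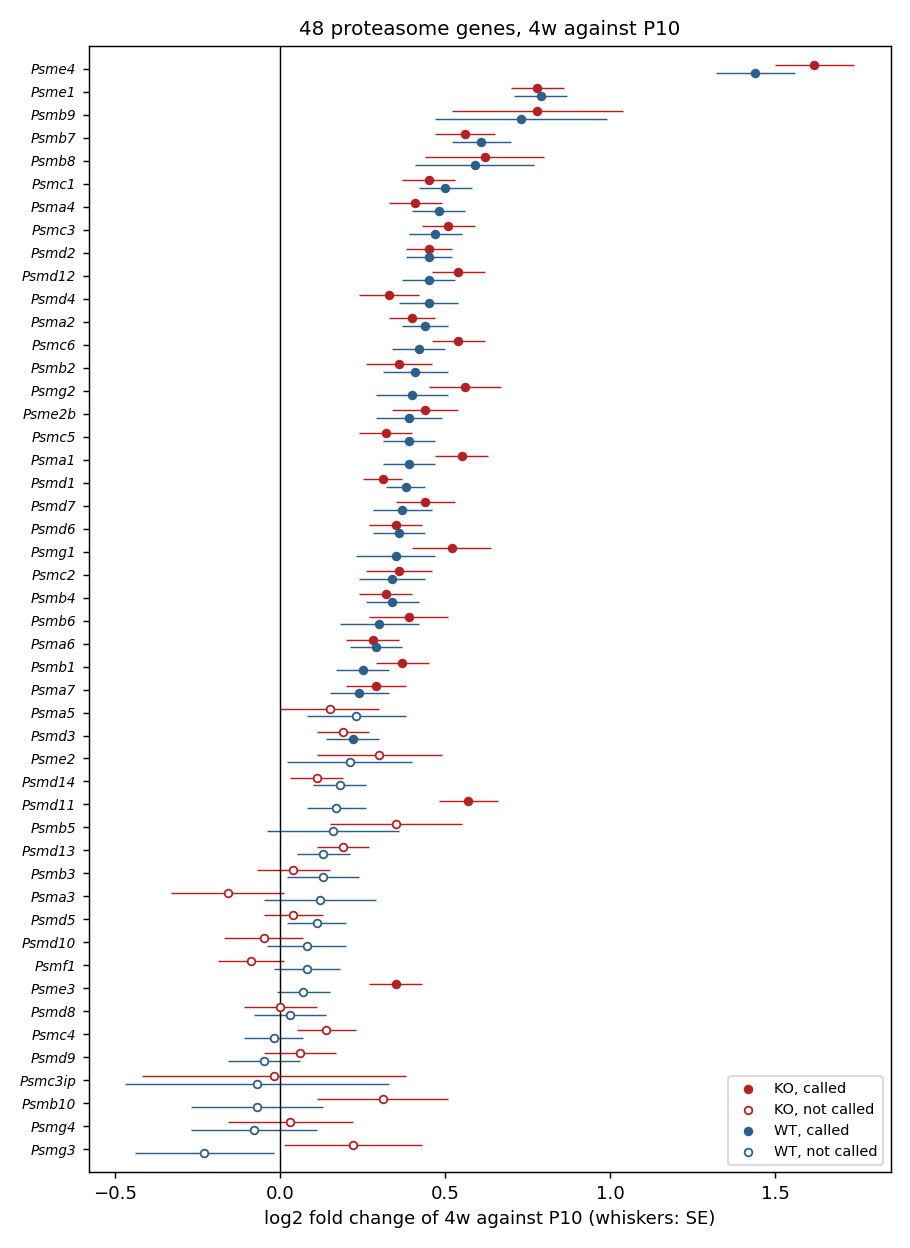
Log2 fold change of 4w against P10 (x axis, whiskers SE) for each of the 48 genes (rows, ordered by the value in WT), in KO (red) and WT (blue); filled circles are called. Most genes lie between 0 and 0.6 in both genotypes, and Psme4 stands far to the right at 1.62 in KO and 1.44 in WT. With a common library total 9 genes were called lower in KO, where 8170 of all 13032 genes were called and 12.0% of those were higher. The common total includes Rn45s, which took 30.8% of the reads of the second 4w KO library.

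By part of the complex, 5 of 7 alpha ring genes, 5 of 7 constitutive beta ring genes and 5 of 6 ATPase genes were called higher at 4w in each genotype. These and the following counts are under the authors' scaling, where 29.6% of all genes in KO and 28.7% in WT were called higher. Of the 11 non-ATPase subunits 7 were called higher in each genotype, with medians of 0.33 in KO and 0.36 in WT. The activators and the inhibitor had 4 of 6 in KO and 3 of 6 in WT, and the chaperones of the core 2 of 4 in each. The chaperones of the regulatory particle (Psmd5, Psmd9 and Psmd10) had 0 of 3 in either genotype, with medians of 0.04 in KO and 0.08 in WT. Psmc1, Psmc6, Psmd12 and Psma4 had log2 fold changes of 0.45, 0.54, 0.54 and 0.41 in KO and 0.50, 0.42, 0.45 and 0.48 in WT. They were chosen after their values were seen. All 4 lay above the medians of the 48 genes, 0.35 in KO and 0.32 in WT.

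Psme4 stood apart from the other members. It encodes PA200, an activator that is not driven by ATP and is known for degrading acetylated histones in testis. It had 3981, 4152 and 4014 normalized counts in P10 KO libraries and 4668, 3709.5 and 5278 in P10 WT libraries. At 4w it had 12484, 13256 and 11737 in KO libraries and 9754, 12824 and 14686 in WT libraries. In the 20w libraries it had 16580.0, 14156 and 15330.0 in KO libraries and 14643, 15339 and 13892 in WT libraries. Every 4w and 20w library was above every P10 library, and KO and WT overlapped at each age. The log2 fold change of 4w against P10 was 1.62 ± 0.12 in KO (adjusted p = 2e-09 in limma) and 1.44 ± 0.12 in WT (adjusted p = 9.1e-09), against 0.30 ± 0.12 in KO (adjusted p = 0.10) and 0.25 ± 0.12 in WT (adjusted p = 0.14) for 20w against 4w. KO against WT gave -0.15 ± 0.12, 0.03 ± 0.12 and 0.07 ± 0.12 at P10, 4w and 20w, none of them called.

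Next in WT came Psme1, whose 4w libraries were all above its P10 libraries in both genotypes (values above), with log2 fold changes of 0.78 ± 0.08 in KO (adjusted p = 6.8e-08 in limma) and 0.79 ± 0.08 in WT (adjusted p = 5e-08). The immunoproteasome gene Psmb9 had 20.3, 30.1 and 25.6 normalized counts in P10 KO libraries and 18.7, 29.9 and 20.3 in P10 WT libraries. In the 4w libraries it had 39.6, 38.5 and 54.0 in KO libraries and 52.2, 39.3 and 26.7 in WT libraries. At 20w it had 55.3, 37.6 and 51.3 in KO libraries and 51.7, 52.6 and 39.2 in WT libraries. In KO the 4w libraries were above all P10 libraries, and in WT the third 4w library fell within the P10 range. The log2 fold change of 4w against P10 was 0.78 ± 0.26 in KO (adjusted p = 0.013 in limma) and 0.73 ± 0.26 in WT (adjusted p = 0.019); both calls rest on single libraries. In WT the call was lost without the first (adjusted p = 0.083 in limma) or the third (0.063) P10 library and without the first (0.12) or the second (0.05) 4w library, and in KO without the first P10 (0.065) or the third 4w (0.071) library.

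Its partner Psmb8 had 77.8, 75.8 and 80.9 normalized counts in P10 KO libraries and 60.0, 104 and 72.2 in P10 WT libraries. At 4w it had 132, 97.4 and 135 in KO libraries and 128, 126 and 96.3 in WT libraries. In the 20w libraries it had 129, 126 and 134 in KO libraries and 97.1, 133 and 105 in WT libraries. The rise at 4w was called in both genotypes (0.62 ± 0.18 in KO, adjusted p = 0.0065 in limma, and 0.59 ± 0.18 in WT, adjusted p = 0.0087). In KO the 4w libraries were above all P10 libraries, and in WT the third 4w library was below the second P10 library. These calls of Psmb8 were not examined without single libraries. Psmb10 was not called. It had 423, 307 and 258 in P10 KO libraries and 307, 494 and 316 in P10 WT libraries. In the 4w libraries it had 362, 385 and 463 in KO libraries and 387, 398 and 273 in WT libraries, and at 20w 276, 351 and 430.2 in KO libraries and 265, 293 and 239.9 in WT libraries. At each age KO and WT overlapped, and within each genotype 4w overlapped with P10 and 20w with 4w, while all 20w WT libraries were below all P10 WT libraries. Its log2 fold change of 4w against P10 was 0.31 ± 0.20 in KO (adjusted p = 0.19 in limma) and -0.07 ± 0.20 in WT (adjusted p = 0.80). The summed level of the 3 immunoproteasome genes was 364.5 to 520.7 in P10 KO and 386 to 628 in P10 WT libraries, 521 to 652 in 4w KO and 395.5 to 567 in 4w WT libraries, and 460.4 to 615 in 20w KO and 384 to 479 in 20w WT libraries. The lymphocyte markers (6 genes) summed to 165 to 348 normalized counts over all groups.

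Of the constitutive catalytic subunits, Psmb7 had 1085, 955 and 871 normalized counts in P10 KO libraries and 839, 962 and 1034 in P10 WT libraries. At 4w it had 1374, 1337 and 1591 in KO libraries and 1385, 1470.2 and 1467 in WT libraries. At 20w it had 1333, 1369.9 and 1474 in KO libraries and 1261, 1176 and 1284 in WT libraries. All 4w libraries were above all P10 libraries in both genotypes, with log2 fold changes of 0.56 ± 0.09 in KO (adjusted p = 2.5e-05 in limma) and 0.61 ± 0.09 in WT (adjusted p = 9.6e-06). Psmb6 had 1300.0, 1000.3 and 979 in P10 KO libraries and 994, 1054 and 1101 in P10 WT libraries. Its 4w libraries held 1209, 1487 and 1601 in KO and 1316, 1289 and 1279 in WT. Its 20w libraries held 1073, 1520.4 and 1228 in KO and 1143, 1012 and 1015 in WT. Psmb6 was called higher at 4w too, by 0.39 ± 0.12 in KO (adjusted p = 0.0093 in limma), where the ranges overlapped, and by 0.30 ± 0.12 in WT (adjusted p = 0.038). Psmb5 had 120.0, 95.6 and 105 in P10 KO libraries and 109, 134 and 139 in P10 WT libraries. In the 4w libraries it had 102, 132 and 185 in KO libraries and 148, 129.9 and 146 in WT libraries, and at 20w 102, 147 and 139.6 in KO libraries and 157, 120.1 and 92.5 in WT libraries. Psmb5 was not called in any comparison, and 57.1% of its 50-base windows occur in other genes.

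**Figure D4:**
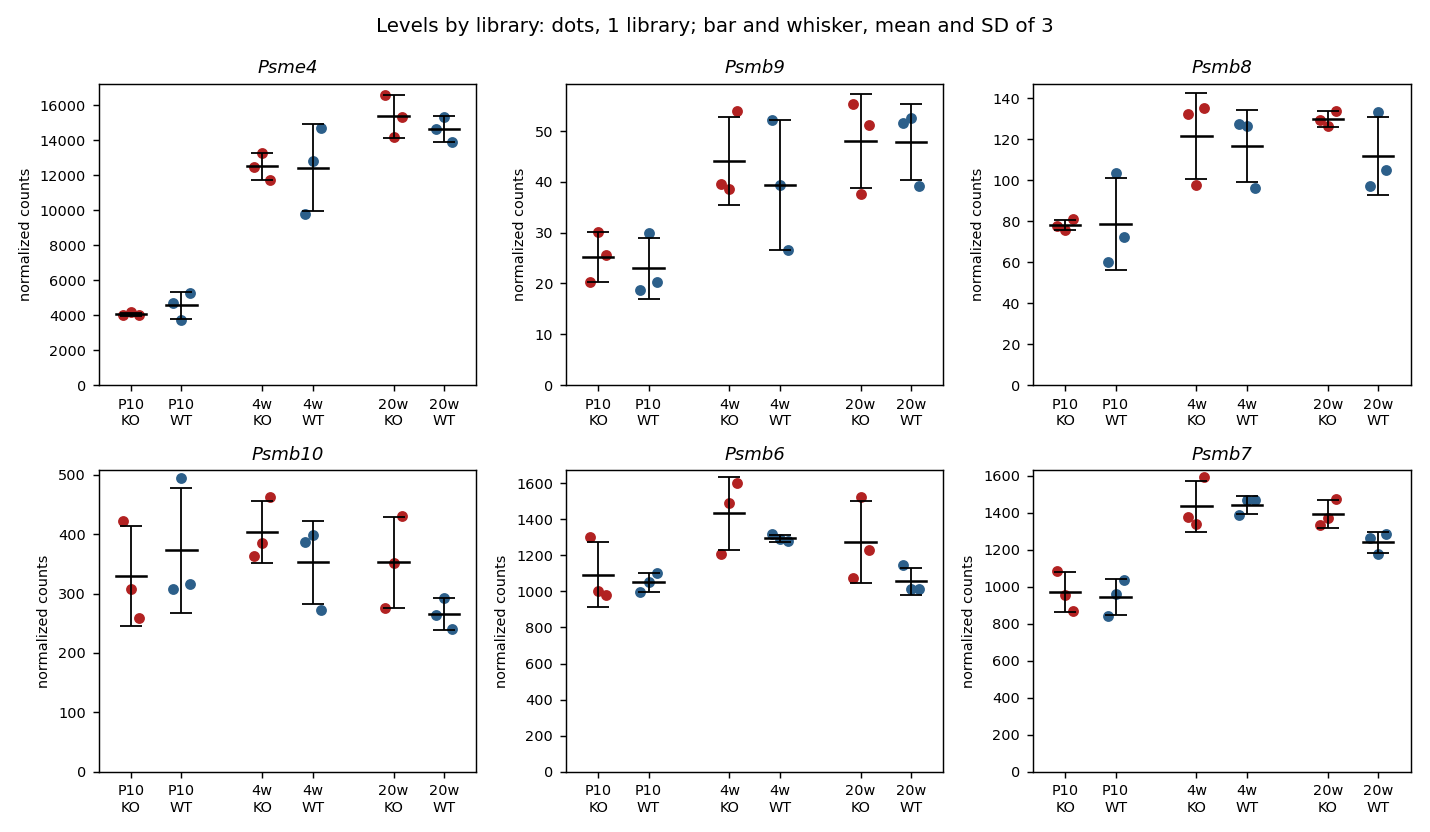
Normalized counts (y axis, from 0) of the activator gene Psme4, the immunoproteasome genes Psmb9, Psmb8 and Psmb10 and the constitutive catalytic genes Psmb6 and Psmb7 in every library by group (x axis; KO red, WT blue); bars are means and whiskers SD of 3 libraries. Psme4 lies between 3709.5 and 5278 at P10 and between 9754 and 16580.0 later, whereas the KO and WT libraries of Psmb10 overlap at each age.

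At the lower end of the called rises in WT were Psmd3 (0.19 ± 0.08 in KO, not called, adjusted p = 0.063 in limma; 0.22 ± 0.08 in WT, adjusted p = 0.027), Psma7, Psmb1 and Psma6, all of them subunits without catalytic activity. Psma7 had 1321, 1487 and 1453 normalized counts in 4w KO libraries, against 1324, 1139.8 and 1036 in P10 KO libraries. It had 1258, 1422 and 1456 in 4w WT libraries, against 1069, 1196 and 1227 in P10 WT libraries. The ranges met in KO, through the first P10 KO library, and were apart in WT (0.29 ± 0.09 in KO, adjusted p = 0.0083 in limma; 0.24 ± 0.09 in WT, adjusted p = 0.023). Psmb1 had 1233, 1349 and 1432 in 4w KO libraries, against 1108, 1081 and 925 in P10 KO libraries. It had 1186, 1404 and 1364 in 4w WT libraries, against 1038, 1132 and 1139.9 in P10 WT libraries. Psmb1 was apart in both genotypes, by 0.37 ± 0.08 in KO (adjusted p = 0.00088 in limma) and 0.25 ± 0.08 in WT (adjusted p = 0.014). Psma6 had 1379.6, 1539.9 and 1347 in 4w KO libraries, against 1130.4, 1284 and 1097 in P10 KO libraries. It had 1398, 1554 and 1639 in 4w WT libraries, against 1174, 1269 and 1306 in P10 WT libraries. Psma6 differed by 0.28 ± 0.08 in KO (adjusted p = 0.0057 in limma) and 0.29 ± 0.08 in WT (adjusted p = 0.0045). The WT calls of Psmd3, Psma7 and Psmb1 were lost without the first P10 WT library (adjusted p 0.069, 0.12 and 0.066), the second 4w WT library (0.10, 0.075 and 0.071) or the third (0.075, 0.094 and 0.053). That of Psmd3 was also lost without the third P10 WT library (0.080), and the KO call of Psma7 without the third P10 KO library (0.067). With a common total, which moved the median of all genes to -0.48 in KO and -0.26 in WT, the values of Psmd3 and Psma7 were below 0 in both genotypes and those of Psmb1 and Psma6 in KO, all without a call and all above that median.

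Among the smaller activator and inhibitor genes, Psme2b had 357, 329 and 354 normalized counts in 4w KO libraries, against 288, 235 and 247 in P10 KO libraries. It had 381, 367 and 353 in 4w WT libraries, against 262, 327 and 256 in P10 WT libraries. The 4w libraries were above the P10 libraries in both genotypes (0.44 ± 0.10 in KO, adjusted p = 0.0014 in limma; 0.39 ± 0.10 in WT, adjusted p = 0.0035), and at 20w Psme2b had 346, 352 and 330.5 in KO and 307, 293 and 356 in WT libraries. Psme2 had 52.4, 48.7 and 43.4 in P10 KO libraries and 67.5, 39.8 and 51.9 in P10 WT libraries. At 4w it had 64.9, 56.8 and 56.6 in KO libraries and 67.7, 59.6 and 54.5 in WT libraries, and at 20w 50.2, 55.4 and 57.0 in KO libraries and 58.0, 37.8 and 54.9 in WT libraries. Psme2 was not called in any comparison, and reads of these copies may have been exchanged. Psmf1, the gene of the inhibitor PI31, ranged from 252 to 324 over all libraries: 309, 309 and 320.2 in P10 KO and 285, 266 and 285 in P10 WT libraries, then 315, 269.8 and 301 in 4w KO and 269.7, 316 and 297 in 4w WT libraries. In the 20w libraries it had 289, 284 and 289 in KO and 324, 252 and 284 in WT libraries, and it was not called in any comparison, although all P10 KO libraries were above all P10 WT libraries.

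The chaperones Psmg1 and Psmg2 form a pair that assembles the alpha ring. Psmg1 had 184, 140.2 and 139.7 normalized counts in P10 KO libraries and 158, 151 and 151 in P10 WT libraries. In the 4w libraries it had 212, 217 and 231 in KO and 175, 198 and 218 in WT libraries, and at 20w 225, 202 and 194 in KO and 188, 197 and 171 in WT libraries. Psmg2 had 249.8, 217 and 192 in P10 KO libraries and 231, 263 and 265 in P10 WT libraries. Both were called higher at 4w, Psmg1 by 0.52 ± 0.12 in KO (adjusted p = 0.00084 in limma) and 0.35 ± 0.12 in WT (adjusted p = 0.014), Psmg2 by 0.56 ± 0.11 in KO (adjusted p = 0.00021) and 0.40 ± 0.11 in WT (adjusted p = 0.0045). At 4w Psmg2 had 305, 343 and 323 in KO and 301, 329 and 371 in WT libraries, and at 20w 334, 302 and 276 in KO and 294, 301 and 269.8 in WT libraries. The other pair, Psmg3 and Psmg4, was not called in any comparison. Psmg3 had 91.0, 57.1 and 48.5 in P10 KO and 64.7, 79.7 and 76.3 in P10 WT libraries, 58.1, 85.2 and 81.8 in 4w KO and 71.0, 58.4 and 58.0 in 4w WT libraries, and 51.9, 60.6 and 41.3 in 20w KO and 58.0, 55.9 and 62.7 in 20w WT libraries. Psmg4 had 100.5, 80.0 and 73.2 in P10 KO and 70.3, 87.1 and 81.9 in P10 WT libraries, 68.3, 99.4 and 93.4 in 4w KO and 57.7, 95.3 and 76.5 in 4w WT libraries, and 74.0, 79.4 and 74.1 in 20w KO and 95.5, 93.8 and 69.0 in 20w WT libraries. The members of this pair spread widely within groups.

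Between 4w and 20w little was called. In KO 0 of 48 genes were called, with 5 at an unadjusted p under 0.05 (edgeR and DESeq2 called 0 and 0), while 19.3% of all genes were called in either direction. In WT 6 of 48 were called lower and 1 higher at 20w, beside 11.8% of all genes lower and 13.3% higher. The median log2 fold change of the 48 genes was -0.03 in KO and -0.11 in WT. The WT count was 3 to 6 without each library in turn (3 without the second 4w or the third 20w WT library, 4 without the third 4w, the first 20w or the second 20w) and 2 without the 4 libraries highest in Rn45s. With a common library total it was 2, and it was 11 when only the 2 groups compared were fitted.

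Psmd11 was the gene called higher at 20w in WT, with 608, 602 and 623 normalized counts in 20w WT libraries, against 437, 415 and 469.7 in 4w WT libraries (0.47 ± 0.09, adjusted p = 0.00057 in limma). The 4w KO libraries (577, 617 and 593) lay in the range of the 20w WT libraries or just below it. This call and the call of Psmd11 between KO and WT at 4w share the 4w WT libraries. Among the genes called lower, Psmd13 had 677, 646 and 610.1 in 20w WT libraries, against 764, 902 and 844 in 4w WT libraries (-0.37 ± 0.08, adjusted p = 0.0027 in limma). Psmb3, a subunit of the beta ring, had 136, 123 and 130.2 in 20w WT libraries, against 149, 178 and 167 in 4w WT libraries (-0.33 ± 0.11, adjusted p = 0.035 in limma). Psmd8, a lid subunit, had 1106, 1183 and 1049 in 20w WT libraries, against 1362, 1374 and 1435 in 4w WT libraries (-0.32 ± 0.11, adjusted p = 0.034). All 3 were lower in every 20w WT than in every 4w WT library, and all 3 were higher in 20w KO than in 20w WT by 0.18 to 0.19 on the log2 scale without a call. The same 20w WT libraries enter both differences, and these genes were named for low values in them, so the KO difference is no separate support. In KO, Psmb3 had 138, 145 and 162 in 20w libraries, against 148, 174 and 176 in 4w libraries. Psmd8 had 1153, 1348 and 1285 in 20w KO libraries, against 1178, 1365 and 1559 in 4w KO libraries. The ranges of both genes overlapped in KO. Psmd13 was lower in every 20w KO library (719, 705 and 772) than in every 4w KO library (790.5, 903 and 818), without a call (-0.19 ± 0.08, adjusted p = 0.11 in limma). The other genes called lower in WT were Psmd5 (-0.30 ± 0.09, adjusted p = 0.020 in limma), Psme1 (-0.26 ± 0.08, adjusted p = 0.018) and Psma7 (-0.25 ± 0.09, adjusted p = 0.041). For Psme1 the 20w WT libraries also enter its call between KO and WT at 20w. Psma7 had 1181, 1082 and 1203 in 20w WT libraries, against 1258, 1422 and 1456 in 4w WT libraries. The calls of Psmd11 and Psmd13 held without each library in turn, but with a common library total that of Psmd11 was lost (0.33, adjusted p = 0.13 in limma). Without the third 20w WT library those of Psmb3 (adjusted p = 0.074 in limma), Psmd8 (0.11) and Psma7 (0.055) were lost, and without the second 4w WT library they were lost too (0.13, 0.069 and 0.12). Psmb3 was further lost without the third 4w (0.083) or the second 20w (0.11) library, and Psmd8 without the first 4w (0.062), the third 4w (0.088) or the first 20w (0.074) library. Psma7 was lost without the third 4w (0.13), the first 20w (0.065) or the second 20w (0.16) library, and Psme1 without the first 4w (0.092), the first 20w (0.061) or the second 20w (0.060) library.

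**Figure D5:**
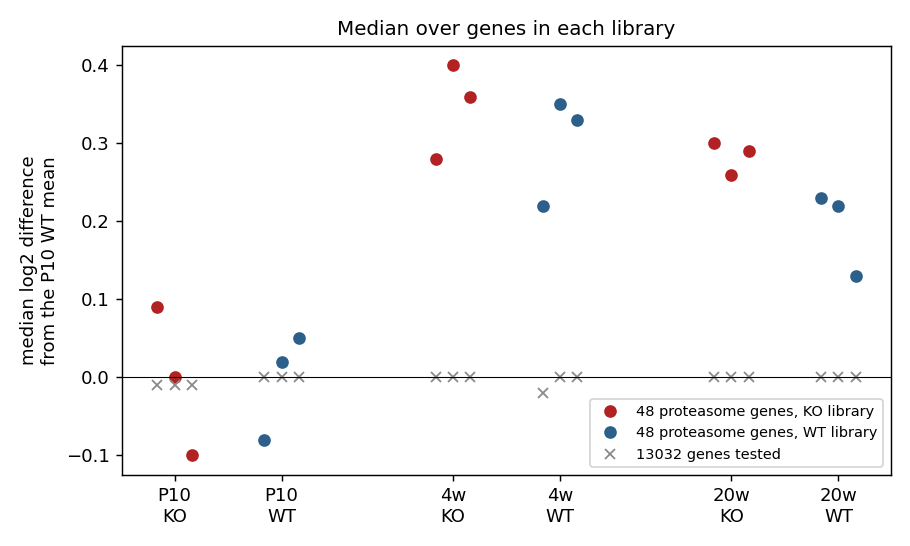
Median over genes of the log2 difference from the P10 WT mean (y axis) in every library by group (x axis): circles are the 48 proteasome genes (KO red, WT blue), crosses all 13032 genes tested. The proteasome median is -0.10 to 0.09 at P10, 0.22 to 0.40 at 4w and 0.13 to 0.30 at 20w, while the crosses stay between -0.02 and 0.00. With a common library total the 4w against P10 median was -0.14 in KO and 0.07 in WT, beside -0.48 and -0.26 over all genes. That total includes Rn45s, which took 30.8% of the reads of the second 4w KO library.

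Genes that work with the proteasome were read from lists chosen with the members. Of 10 proteasome-associated genes outside the naming rule, 0 were called between KO and WT at any age, and 5 in KO and 6 in WT were called higher at 4w than at P10, beside 29.6% of all genes in KO and 28.7% in WT under the authors' scaling. Among them was Pomp, the maturation protein of the core, at 720.4 ± 61.4 normalized counts in 4w KO and 550.5 ± 42.3 in P10 KO libraries, and at 849.8 ± 73.8 in 4w WT and 587.2 ± 79.6 in P10 WT libraries (SD, n = 3 each). Of 8 genes around NRF1 (Nfe2l1), the factor known to induce proteasome genes when proteasome activity falls short, 0 were called between KO and WT at any single age, and 6 were called higher at 4w in each genotype. Nfe2l1 itself averaged 7645.9 ± 729 in 4w KO and 6106.1 ± 66 in P10 KO libraries, and 7147.9 ± 459 in 4w WT and 5517 ± 225 in P10 WT libraries. Of 10 genes of MHC class I peptide loading and its regulators, 0 were called between KO and WT at any single age, and 7 were called higher at 4w in each genotype, with 1 called lower in WT. Among them was B2m, with log2 fold changes of 0.98 ± 0.13 in KO (adjusted p = 2.8e-06 in limma) and 0.77 ± 0.13 in WT (adjusted p = 4.8e-05). In the effect averaged over the ages, 0 of the proteasome-associated genes, 1 higher and 1 lower of the NRF1 list and 1 lower of the MHC class I list were called. These were Mafg, a small Maf partner of NRF1 (0.19 ± 0.06, adjusted p = 0.034 in limma), Nfe2l2, which encodes NRF2 (-0.18 ± 0.04, adjusted p = 0.011) and Calr, the chaperone calreticulin (-0.12 ± 0.04, adjusted p = 0.046), beside 4.27% of all genes called higher and 6.1% lower.

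Upstream of the proteasome, the polyubiquitin gene Ubb was called lower in KO at each age, where 1.67%, 2.66% and 4.28% of all genes were called lower at P10, 4w and 20w. Ubb had 577, 440.3 and 432 normalized counts in P10 KO libraries, against 1086.5, 1045 and 1049.8 in P10 WT libraries. It had 610.1, 558 and 691 in 4w KO libraries, against 715, 1082 and 1063.5 in 4w WT libraries. It had 709, 558 and 412 in 20w KO libraries, against 1187, 1155 and 1107 in 20w WT libraries. Every KO library was below every WT library of its age, with log2 fold changes of -1.14 ± 0.16, -0.60 ± 0.16 and -1.07 ± 0.16 (adjusted p 0.00039, 0.035 and 0.00027 in limma). At 4w the call was lost without the first (adjusted p = 0.11 in limma) or the second (0.15) 4w KO library, without the second (0.17) or the third (0.15) 4w WT library, and without the 4 libraries highest in Rn45s (-0.42, adjusted p = 0.46). Ubb is made of near-identical repeats, so its counts are uncertain.

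Of 10 ubiquitin shuttles and cofactors of the segregase p97, 2 were called at 4w, both higher, beside 2.99% of all genes called higher. Ubqln2, a shuttle that brings ubiquitinated proteins to the proteasome, had 431, 404 and 366 normalized counts in 4w KO libraries, against 239, 249 and 255 in 4w WT libraries (0.69 ± 0.09, adjusted p = 4.9e-05 in limma). At P10 and 20w it averaged 432.3 ± 11.9 and 401.1 ± 24.3 in KO and 434 ± 41.3 and 470.2 ± 32.8 in WT (SD, n = 3 each), so the 4w WT libraries were the low ones. Its effect of Klf15 loss differed between 4w and P10 (0.69, adjusted p = 0.0083 in limma) and between 20w and 4w (-0.92, adjusted p = 0.0022). The 4w libraries, for which Ubqln2 was named, enter both tests. With a common total the 4w difference was 0.45 (adjusted p = 0.082 in limma). Nploc4, a cofactor of p97, averaged 1496.3 ± 40.2 in 4w KO and 1236.1 ± 35.1 in 4w WT libraries (0.28 ± 0.06, adjusted p = 0.010 in limma), and this difference was 0.03 with a common total (adjusted p = 0.88) and 0.29 without the 4 libraries highest in Rn45s (adjusted p = 0.089).

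Of 10 muscle ubiquitin ligases, 1 was called higher and 1 lower at P10 (2.26% of all genes were called in either direction), 1 higher at 4w (2.99% of all genes) and 1 higher at 20w (3.21% of all genes). Trim55 (MuRF2), a ligase of the sarcomere, averaged 1650.5 ± 120.7 normalized counts in P10 KO and 1314.4 ± 106.3 in P10 WT libraries, 1346.2 ± 4.5 in 4w KO and 1005.3 ± 49.9 in 4w WT, and 1295.5 ± 104.4 in 20w KO and 1094.4 ± 69.8 in 20w WT (SD, n = 3 each). Its log2 fold changes were 0.33, 0.42 and 0.24, with adjusted p of 0.033, 0.0026 and 0.069 in limma. The P10 call was lost without any of the P10 KO libraries (adjusted p 0.070, 0.052 and 0.18) and without the second (0.17) or the third (0.10) P10 WT library. With a common total neither call held (0.33, adjusted p = 0.56 at P10, and 0.18, adjusted p = 0.39 at 4w), nor did the 4w call without the 4 libraries highest in Rn45s (adjusted p = 0.060). Trim54 (MuRF3) had 156, 133 and 136 in P10 KO libraries, against 189, 359 and 265 in P10 WT libraries (-0.89 ± 0.16, adjusted p = 0.0042 in limma). Fbxo40, a muscle F-box protein, had 3878, 4224 and 4582.5 in 20w KO libraries, against 3015, 2961 and 2988 in 20w WT libraries (0.50 ± 0.07, adjusted p = 0.00021 in limma). The KO and WT libraries did not overlap in any of these called comparisons. At 4w against P10, 5 of the 10 shuttles and cofactors were called higher and 1 lower in KO, and 5 higher and 2 lower in WT, while of the 10 ligases 6 were called higher and 3 lower in KO, and 7 higher and 3 lower in WT. Of all genes, 29.6% were called higher and 28.4% lower in KO, and 28.7% higher and 29.2% lower in WT.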

How the data were processed

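Ventricular RNA of 18 libraries in 6 groups was sequenced. The deposited table holds a signal per gene and library: whole reads scaled by the authors with DESeq2's size factors, per the submitters' processing notes. These notes also name Bowtie2 2.0 and the build mm9, while for the read counter, annotation and strand setting the sources used here give nothing. Every value was a whole multiple of the worth of 1 read, so whole reads were recovered for 100% of values (tolerance 0.001 reads). Names turned into dates affected 27 entries. All libraries of a group differed beyond sampling noise in a chi-square comparison of their reads.

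The values were analysed as log2(value + 1). Genes with a mean of at least 10 were fitted with limma 3.58.1 (R 4.3.3), 6 group means and a shared spread per gene with a mean trend, tested on simulated data. Tests were two-sided. Alternatives were a pseudocount of 0.5, no filter on low values, a common library total, a replicate block, fits of the compared groups alone, edgeR 4.0.16 (quasi-likelihood) and DESeq2 1.42.0 on recovered reads, leaving out the 4 libraries highest in Rn45s, and each library in turn. Replicate numbers did not pair libraries across groups.

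The named members are those called between KO and WT, filled to 8 by smallest adjusted p, the 4 highest and 4 lowest called log2 fold changes of 4w against P10 in WT, the 3 highest and 3 lowest called of 20w against 4w in WT, and the catalytic, activator, inhibitor and core chaperone genes. The members, lists and rule were chosen with earlier results of these data known. Since only 1 gene was called higher for 20w against 4w, the rule also named Psma7 and Psme1, which were lower. Of related lists, genes called between KO and WT were named, and Pomp, Nfe2l1, B2m, Mafg, Nfe2l2 and Calr were chosen after their values were seen, as were Psmc1, Psmc6, Psmd12 and Psma4. Sequences are from RefSeq on GRCm38.p6, matched by symbol, and shared 50-base windows were found in the GENCODE transcripts. The counts limit precision, and p-values cover the spread between libraries. A result on 1 related gene is not reported here.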

Additional observations from a re-analysis of the deposited data

Results flagged for a closer look

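No proteasome gene had an effect of Klf15 loss that differed between ages by an interaction test. Of the related genes named, Ubqln2, Trim54 and Fbxo40 did. They were named for a call between KO and WT at a single age, and the same libraries enter these tests. Their number is therefore no separate support and cannot be set against that of the proteasome genes. Over all genes limma called 1.26% for 4w against P10, 3.74% for 20w against P10 and 0.192% for 20w against 4w. For Ubqln2 the log2 effect at 4w exceeded that at P10 by 0.69 ± 0.13 (adjusted p = 0.0083 in limma), and the effect at 20w minus that at 4w was -0.92 ± 0.13 (adjusted p = 0.0022). For Trim54 the effect at 4w exceeded that at P10 by 1.14 ± 0.23 (adjusted p = 0.016 in limma) and that at 20w exceeded it by 1.21 ± 0.23 (adjusted p = 0.0047). For Fbxo40 the effect at 20w exceeded that at P10 by 0.68 ± 0.11 (adjusted p = 0.0012 in limma).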

How the results depend on the processing

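The 11 counts of called proteasome genes held within 1.5 times under the pseudocount, without the filter on low values and with the replicate block. With a common library total the count of called genes was 0 for KO against WT at 4w and at 20w, 2 for 4w against P10 in WT, 10 in KO, 2 for 20w against 4w in WT and 1 for the effect averaged over the ages. Without the 4 libraries highest in Rn45s it was 0 at 4w, 0 at 20w, 2 for 20w against 4w in WT and 1 for the averaged effect. The libraries left out were the second of each 4w and 20w group, so those groups had fewer libraries in that fit. edgeR and DESeq2 each called 1 gene at P10. Fitting the compared groups alone gave 11 genes for 20w against 4w in WT. The cause was not tested. Leaving out each library in turn gave 1 to 2 called genes for KO against WT at 4w, 1 to 3 at 20w, 3 to 6 for 20w against 4w in WT and 0 to 1 in KO. With a common total the log2 fold change of 4w against P10 reversed for Psmd3 (-0.31 in KO, -0.03 in WT), Psma7 (-0.20 in KO, -0.01 in WT), Psmb1 (-0.12 in KO) and Psma6 (-0.21 in KO). Of 746 recomputed values of single genes, 626 kept direction and side of the threshold, 105 lost a call, 9 gained one and 6 reversed. Libraries of the same number did not deviate together: the correlations of their deviations between KO and WT ran from -0.245 to 0.123. With the replicate block the called counts were 0 at P10, 1 at 4w, 1 at 20w, 30 for 4w against P10 in KO, 28 in WT, 0 for 20w against 4w in KO and 6 in WT. Genes with few reads, such as Psmb9 and Psmc3ip, have the widest standard errors.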
